A study of Mus musculus with 35 samples.

Results

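The comparison described here set PMN-MDSC (polymorphonuclear myeloid-derived suppressor cells) against M-MDSC (monocytic myeloid-derived suppressor cells), both sorted from the tumors of untreated mice. It used 8 of the 35 libraries of the series, 4 per population, chosen by the cell type, organ and treatment in the names of the deposited columns. Of 53379 genes counted, 7623 averaged 25 counts or more in these 8 libraries and were tested. C57BL6 mice carried orthotopic pancreatic tumors of T110299 cells, a single line raised from a genetically engineered mouse with Ptf1a-Cre and LSL-Trp53fl/R172H among its alleles, in which Cre is driven by a gene of the embryonic pancreas. All libraries used here thus came from hosts of 1 strain with the same implanted line. The mice are labelled untreated, and per the protocol in the labels controls received glucose intravenously on days 18 and 20 after tumor induction, when other mice received poly(I:C) complexed with polyethylenimine. Cells positive for CD11b were enriched on magnetic columns. Live cells were then sorted as Ly6G+ with low Ly6C (PMN-MDSC) or as Ly6G- with high Ly6C (M-MDSC). The labels number 4 mice per treatment, but the columns carry a running number that no label explains. Libraries were therefore not paired by mouse, and the numbers 1 to 4 used here are only names in column order.

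Neutrophils and monocytes arise from shared myeloid progenitors in the bone marrow and leave the blood for inflamed tissue and tumors. Neutrophils depend on the receptor for G-CSF, follow ELR+ CXC chemokines through Cxcr2, and carry the surface protein Ly6G. Classical monocytes carry Ly6C and the chemokine receptor Ccr2, and in tissue they become macrophages, which express complement C1q, F4/80 and scavenger receptors. Cells of both lineages that suppress T cells in tumor-bearing hosts are named MDSC, and the sort gates above separate them by both Ly6 proteins.

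The PMN-MDSC libraries held 1648775 to 2502390 counts and the M-MDSC libraries 793070 to 3604818. The floor taken as detectable, 3 counts, was at most 1.82 CPM (counts scaled to a common library total) in PMN-MDSC and 3.78 CPM in the smallest M-MDSC library, number 4. Such floors cover counting error only, since PCR copies were counted without molecular identifiers. No 2 libraries of a group agreed within sampling noise. Mitochondrial genes took 7.17 to 15.3% of counts in PMN-MDSC and 7.79 to 10.9% in M-MDSC. Krt8, a keratin of the tumor cells, stood at 5.48% ± 4.23 of its level in bulk tumor in PMN-MDSC (SD, n = 4) and at 2.04% ± 1.91 in M-MDSC (SD, n = 4). The highest PMN-MDSC value, 10.9%, was that of library 1. The paper's methods put mean tumor cell contamination of tumor MDSC, judged by cytokeratin expression, under 1%. Its text does not state the reference level, and the reason for the gap to the percentages of bulk tumor given here was not tested.

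Transcripts of the sort antigen Ly6G did not mark the tumor PMN-MDSC strongly. Ly6g (ENSMUSG00000022582.4, chromosome 15, 75155240 to 75159126 on GRCm38) had 0, 3, 23 and 2 counts in PMN-MDSC libraries 1 to 4 and 1, 0, 1 and 0 in the M-MDSC libraries. PMN-MDSC library 3 alone held 23 of the 28 counts, and the groups met at 0. The pooled level was 13.3-fold higher in PMN-MDSC, with a 95% counting interval of 3.35 to 115, and the gene was too low to be tested. This interval covers counting error of the pooled libraries and not the spread between them, and the ratio rests mostly on library 3. The mean of 2.94 CPM in tumor PMN-MDSC was 5.33% of the 55.2 CPM in PMN-MDSC from the spleens of untreated mice. Csf3r, the receptor for G-CSF, was well detected in the same libraries, at 369 CPM per kilobase of exon against 3.12 for Ly6g.

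Ly6c2, which encodes Ly6C (ENSMUSG00000022584.14, chromosome 15, 75108158 to 75111970), separated the groups. It stood at 3.03, 8.13, 11.2 and 1.90 CPM in PMN-MDSC libraries 1 to 4 and at 134, 147, 82.9 and 40.4 CPM in M-MDSC libraries 1 to 4. Every M-MDSC library lay above every PMN-MDSC library, with a log2 fold change of −3.97 ± 0.517 SE and an adjusted p = 0.000966, the log2 fold change being PMN-MDSC minus M-MDSC with its standard error (SE). Leaving out 1 library kept it called in 1 of 8 fits, with an adjusted p of at most 0.0044, and with upper-quartile scaling it was 0.00123. Ly6c1, its near-identical neighbor, had 1 count in all PMN-MDSC libraries together and 1 in all M-MDSC libraries, and reads shared by both genes may have been split between them. Itgam, which encodes CD11b, was at 281, 351, 386 and 362 CPM in PMN-MDSC and 428, 301, 445 and 797 CPM in M-MDSC. These values overlapped (log2 fold change −0.47 ± 0.261 SE, adjusted p = 0.269). Ptprc, which encodes CD45 of all leukocytes, had a log2 fold change of 0.06 ± 0.183 SE and an adjusted p = 0.883.

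**Figure D1:**
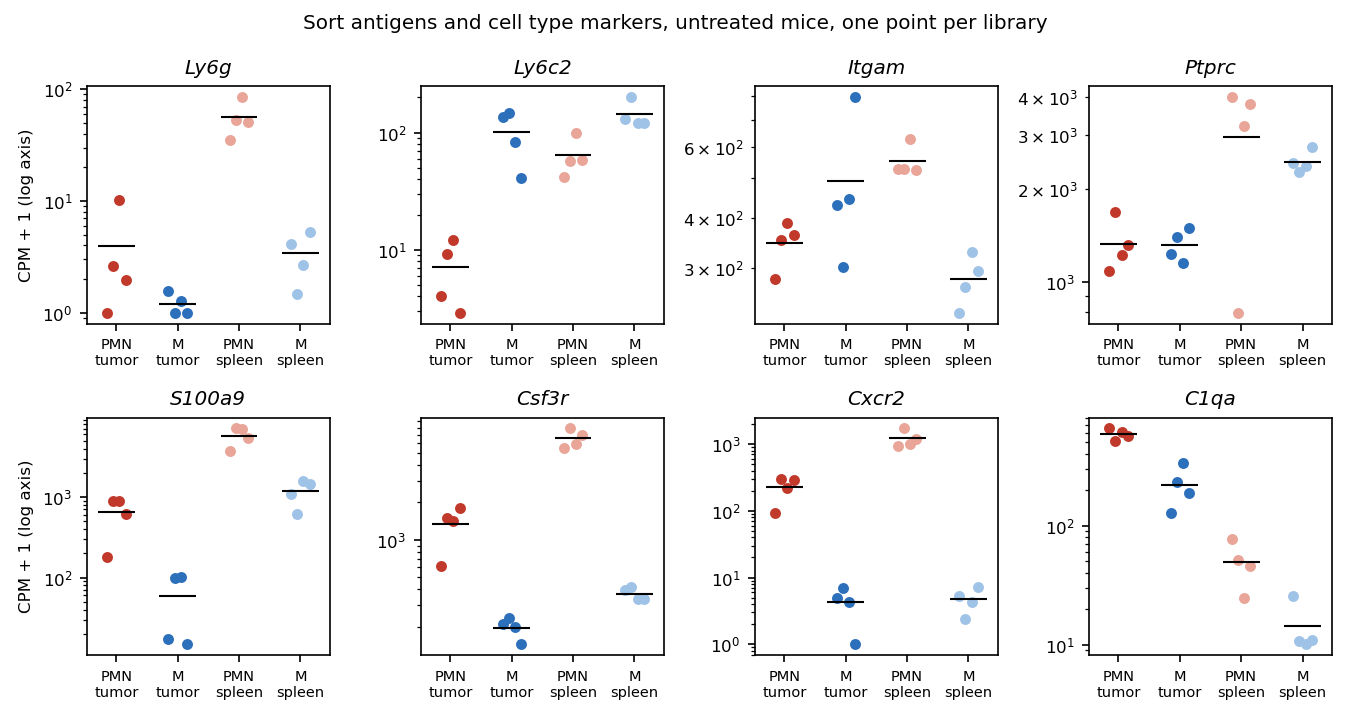
CPM plus 1 (log axis) of 3 sort antigens (Ly6g, Ly6c2, Itgam), Ptprc and 4 marker genes, with 1 point per library of untreated mice and a line at the group mean. Ly6g falls to 0 counts in tumor PMN-MDSC library 1, Ly6c2 is at most 11.2 CPM in tumor PMN-MDSC and at least 40.4 CPM in tumor M-MDSC, and C1qa is higher in tumor PMN-MDSC than in spleen PMN-MDSC.

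The names PMN-MDSC and M-MDSC therefore denote sort labels in what follows. With edgeR's quasi-likelihood test and Benjamini-Hochberg adjustment over all tested genes, 126 genes (1.65%) passed the thresholds of the study, an adjusted p under 0.001 and a difference of at least 2-fold. Of these called genes, 93 (1.22%) were higher and 33 (0.433%) lower in PMN-MDSC, 116 were protein-coding, and in all 126 the libraries of the groups did not overlap. Without a fold limit, 990 genes (13%) had an adjusted p under 0.05, 553 (7.25%) of them higher and 437 (5.73%) lower in PMN-MDSC. A gene is called higher or lower below where it passed this wider threshold, and called where it also passed the stricter pair. The median log2 difference over all tested genes was −0.01 and the median of absolute log2 differences 0.28. The groups did not overlap in 1501 genes (19.7%), 677 (8.88%) of them higher and 824 (10.8%) lower in PMN-MDSC. DESeq2 called 388 genes at the same thresholds, including all 126. The number called rested on single libraries. It was 190 without PMN-MDSC library 1, 118 and 90 without M-MDSC libraries 4 and 3, and 53, 54, 57, 65 and 67 without PMN-MDSC libraries 2, 4 and 3 and M-MDSC libraries 2 and 1. The 36 called genes chosen by the naming rule kept an adjusted p under 0.05 in every one of these 8 fits that tested them, and 16 of them stayed called in all 8 (Mmp9 and Acod1, named below outside the rule, were not looked up there).

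**Figure D2:**
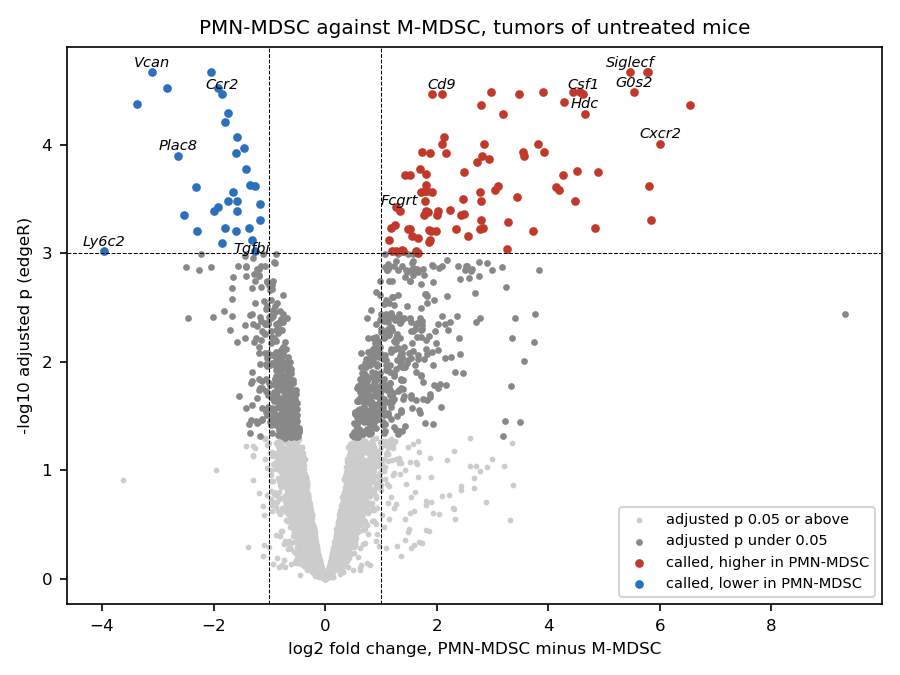
Log2 fold change of PMN-MDSC minus M-MDSC against −log10 of the edgeR adjusted p for the 7623 genes tested in untreated tumors; dashed lines mark a 2-fold difference and an adjusted p of 0.001. Called genes are more numerous on the PMN-MDSC side (93 against 33). The point farthest right, singled out after its values were seen, is Asprv1, which had 0 counts in every M-MDSC library and was not called.

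Genes of the neutrophil lineage were the clearest group on the PMN-MDSC side. Of 26 neutrophil genes listed, 23 were tested, 7 were called higher, 17 were higher and 0 lower. Of all tested genes, 1.22% were called higher, 7.25% were higher and 5.73% lower. The median log2 difference of the tested members was 2.02 against −0.01 over all genes. The called members were Cxcr2, G0s2, Hdc, Csf3r, Il1r2, Mmp9 and Acod1, the last pair being named after their values were seen. The list's summed level was 7092 CPM in PMN-MDSC library 1 and 13930 CPM at the median of the 4 libraries, against at most 5481 CPM in the M-MDSC libraries. Fewer neutrophils in a sorted sample and less of these RNAs per neutrophil cannot be told apart in bulk libraries.

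Cxcr2 (ENSMUSG00000026180.8, chromosome 1, 74153989 to 74161246), the receptor through which neutrophils follow CXC chemokines, stood at 90.4, 304, 219.8 and 289 CPM in PMN-MDSC libraries 1 to 4 and at 3.85, 6.07, 3.33 and 0 CPM in M-MDSC libraries 1 to 4. The groups were far apart, and PMN-MDSC library 1 was the lowest of its group (log2 fold change 6.00 ± 0.527 SE, adjusted p = 9.79e-05). Without M-MDSC library 1 or 4 the adjusted p was 0.0012 and 0.00115. Csf3r was at 619, 1503, 1411 and 1797 CPM in PMN-MDSC and 208, 234, 198 and 144 CPM in M-MDSC, again lowest in PMN-MDSC library 1 (log2 fold change 2.81 ± 0.297 SE, adjusted p = 0.000127). G0s2, an inhibitor of triglyceride breakdown, was at 269.9, 805, 617 and 844 CPM against 8.80, 18.2, 17.5 and 10.1 CPM (log2 fold change 5.54 ± 0.414 SE, adjusted p = 3.3e-05). Hdc, the enzyme that makes histamine, was at 348, 931, 967 and 962 CPM against 37.4, 36.4, 39.7 and 13.9 CPM (log2 fold change 4.65 ± 0.389 SE, adjusted p = 5.18e-05). Il1r2, the decoy receptor for interleukin-1, was at 391, 862, 948 and 1141 CPM against 61.6, 51.2, 113 and 65.6 CPM (log2 fold change 3.56 ± 0.351 SE, adjusted p = 0.000127). In all of these genes the lowest PMN-MDSC library lay above the highest M-MDSC library.

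The calgranulin genes S100a8 and S100a9, among the most abundant neutrophil transcripts, did not overlap between the groups. S100a9 was at 181, 891, 888 and 607 CPM in PMN-MDSC and 16.5, 98.4, 100.4 and 13.9 CPM in M-MDSC (log2 fold change 3.49 ± 0.823 SE, adjusted p = 0.036), and leaving out 1 library kept its adjusted p under 0.05 in 1 of 8 fits (at most 0.0813). S100a8, at 75.8, 408, 395 and 213 CPM against 9.90, 49.9, 43.3 and 0 CPM, had a log2 fold change of 3.35 ± 0.892 SE and an adjusted p = 0.056. M-MDSC libraries 1 and 4 and PMN-MDSC library 1 held the lowest S100a9 values of their groups.

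The neutrophil genes stood below their level in spleen PMN-MDSC for the most part. Their summed CPM in tumor PMN-MDSC was 46.6% ± 13.1 of the spleen mean (SD, n = 4; 26.9 to 53.7%), the lowest value being that of library 1, and 50.1% without spleen PMN-MDSC library 2. Tumor M-MDSC held 16.4% ± 4.16 (SD, n = 4). Of their mean sum of 4316 CPM, Ptgs2 held 1906, Clec4e 837 and Mxd1 665 CPM. Csf3r stood at 196, Cxcr2 at 3.31 and Ly6g at 0.207 CPM in these M-MDSC. In tumor PMN-MDSC, 13 of the 26 genes stood under 20% of spleen and 7 above 100%. Mmp8, a collagenase of neutrophil granules, was at 4.68%, Retnlg at 7.73%, S100a8 at 11.4%, Cxcr2 at 18.5% and Csf3r at 20.3%. Hdc, at 129%, Il1r2, at 196%, and G0s2, at 875%, lay above the spleen level. Ptgs2, the inducible cyclooxygenase, was at 8090% and held much of the tumor sum. Without it the sum was 34.3%, and the median of the 26 percentages was 19.4%. Mmp8 and the other genes given with a percentage or an M-MDSC level here were picked with their values in view.

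Neutrophil precursors make the earliest granule transcripts. Of 15 granule genes, 10 were tested, 1 was higher and 2 lower in PMN-MDSC, where 13% of all tested genes were either, with a median log2 difference of 0.22. Elane, neutrophil elastase, had 0 counts in every PMN-MDSC library and 2, 43, 51 and 0 in M-MDSC libraries 1 to 4. Mpo, myeloperoxidase, was at 1.21, 0.542, 5.20 and 1.42 CPM in PMN-MDSC and 1.65, 67.4, 44.4 and 0 CPM in M-MDSC (log2 fold change −3.62 ± 1.32 SE, adjusted p = 0.124), highest in M-MDSC libraries 2 and 3. The eosinophil granule genes Prg2 and Epx were found in the same M-MDSC libraries, with 16 and 66 counts for Prg2 in libraries 2 and 3 and 0 in libraries 1 and 4. Chil3 was lower (log2 fold change −2.02 ± 0.348 SE, adjusted p = 0.00384), and Cybb, the catalytic subunit of the phagocyte oxidase, was lower too (log2 fold change −0.58 ± 0.153 SE, adjusted p = 0.0243), with an adjusted p of up to 0.0865 without 1 library.

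**Figure D3:**
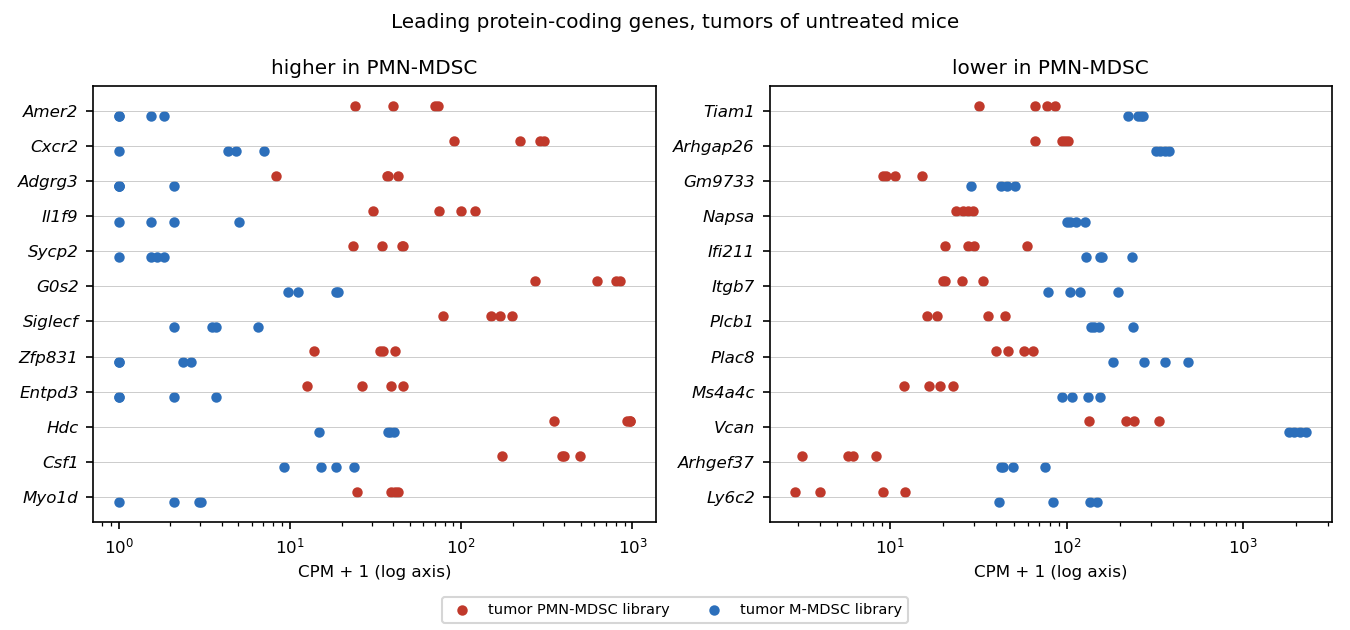
CPM plus 1 (log axis) of the 12 called protein-coding genes with the highest and the 12 with the lowest log2 fold change whose libraries did not overlap, with 1 point per library of untreated tumors (4 PMN-MDSC, 4 M-MDSC). For every gene shown the PMN-MDSC and the M-MDSC points are apart, and several genes on the left have M-MDSC libraries at 0 counts.

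The 12 highest fold changes among called protein-coding genes were those of Amer2, Cxcr2, Adgrg3, Il1f9, Sycp2, G0s2, Siglecf, Zfp831, Entpd3, Hdc, Csf1 and Myo1d, with log2 fold changes from 4.58 to 6.55. Siglecf, an inhibitory receptor for sialic acid known from eosinophils and from neutrophils in tissue, was at 77.6, 168, 149 and 196 CPM in PMN-MDSC and 1.10, 2.7, 5.55 and 2.52 CPM in M-MDSC (log2 fold change 5.47 ± 0.408 SE, adjusted p = 2.16e-05). It was the only tested gene of 11 markers of eosinophils, basophils and mast cells. Prg2 and Epx, which eosinophils express most strongly, had 16 and 2 counts in all PMN-MDSC libraries together, whereas Ccr3, their eotaxin receptor, had 20, 19, 70 and 54. Csf1, the macrophage growth factor, was at 172, 385, 396 and 489.9 CPM against 8.25, 14.2, 17.5 and 22.7 CPM (log2 fold change 4.63 ± 0.375 SE, adjusted p = 3.43e-05). Il1f9, which encodes interleukin-36 gamma, was at 29.7, 119, 98.3 and 73.5 CPM against 0.550, 4.04, 1.11 and 0 CPM (log2 fold change 5.80 ± 0.621 SE, adjusted p = 0.000242). Amer2, a gene of the APC protein network, had 415 counts in PMN-MDSC and 4 in M-MDSC (log2 fold change 6.55 ± 0.605 SE, adjusted p = 4.35e-05). Adgrg3, an adhesion G protein-coupled receptor of neutrophils, had 260 and 4 counts (log2 fold change 5.84 ± 0.763 SE, adjusted p = 0.000495), and its adjusted p reached 0.00452 without 1 library. Entpd3, an ectonucleotidase, was at 11.5, 44.4, 25.2 and 37.9 CPM against 0, 2.7, 1.11 and 0 CPM. Fitted differences of genes with M-MDSC libraries at 0 depend on the model and are not bounds.

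Monocyte genes formed the clearest group on the M-MDSC side. Of 16 listed, 15 were tested, 7 were called lower in PMN-MDSC, 8 were lower and 1 was higher, with a median log2 difference of −1.29. Of all tested genes, 0.433% were called lower, 5.73% were lower and 7.25% higher. Vcan (ENSMUSG00000021614.16, chromosome 13, 89655312 to 89742509), the matrix proteoglycan versican of classical monocytes, stood at 330.5, 217, 239.8 and 133 CPM in PMN-MDSC libraries 1 to 4 and 2278, 1942, 2086 and 1823 CPM in M-MDSC libraries 1 to 4. The lowest M-MDSC library was far above the highest PMN-MDSC library (log2 fold change −3.10 ± 0.240 SE, adjusted p = 2.16e-05). Ccr2, which brings monocytes out of the bone marrow, was at 458, 312, 328 and 325 CPM against 1462, 1103, 1368 and 1320.0 CPM (log2 fold change −1.84 ± 0.170 SE, adjusted p = 3.45e-05). Plac8 was at 63.1, 56.4, 45.6 and 38.9 CPM against 360.1, 485, 273 and 182 CPM (log2 fold change −2.63 ± 0.279 SE, adjusted p = 0.000127). Ms4a4c had a log2 fold change of −2.83 ± 0.238 SE and an adjusted p = 2.99e-05, and F13a1, coagulation factor XIII A, a log2 fold change of −1.58 ± 0.203 SE and an adjusted p = 0.000333. For F13a1 the adjusted p was 0.0217 when the 4 untreated MDSC groups were fitted together. The exception was Cx3cr1, the fractalkine receptor of patrolling monocytes and macrophages, which was higher in PMN-MDSC (log2 fold change 1.10 ± 0.297 SE, adjusted p = 0.0303), though with an adjusted p of up to 0.0899 without 1 library. Although lower than in M-MDSC, the summed monocyte list in PMN-MDSC reached 10060 to 15830 CPM, against 3447 to 4304 CPM in spleen PMN-MDSC.

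The 12 lowest fold changes among called protein-coding genes were those of Ly6c2, Arhgef37, Vcan, Ms4a4c, Plac8, Plcb1, Itgb7, Ifi211, Napsa, Gm9733, Arhgap26 and Tiam1, with log2 fold changes from −3.97 to −1.92. Itgb7, the integrin beta 7 chain of homing to gut and mucosa, was at 19.4, 19, 24.4 and 32.7 CPM in PMN-MDSC and 104, 195, 119 and 76.9 CPM in M-MDSC (log2 fold change −2.32 ± 0.279 SE, adjusted p = 0.000245). Arhgef37, a guanine nucleotide exchange factor, was at 7.28, 2.17, 5.20 and 4.74 CPM against 42.3, 74.8, 48.5 and 41.6 CPM (log2 fold change −3.37 ± 0.319 SE, adjusted p = 4.27e-05). Napsa, an aspartic protease, was at 28.5, 24.9, 26.8 and 22.8 CPM against 99.5, 126, 104 and 112 CPM (log2 fold change −2.05 ± 0.163 SE, adjusted p = 2.16e-05). Ifi211, of the interferon-inducible Ifi200 family, had a log2 fold change of −2.30 ± 0.311 SE and an adjusted p = 0.000625, with an adjusted p of up to 0.00425 without 1 library. Tgfbi, a matrix protein induced by TGF-beta, was at 1486, 937, 1286 and 1139 CPM against 3798, 3077, 3183 and 2374 CPM (log2 fold change −1.32 ± 0.190 SE, adjusted p = 0.000754). Without 1 library its adjusted p reached 0.00506. Ly6c2, Ifi211, Ms4a4c, Gm9733 and C4b belong to families with close copies in the genome, among which the authors' counting may have split reads, and their values are uncertain to that extent.

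Promoter sequence is shown for 1 leading gene of each direction, Cxcr2 and Ly6c2, as the 250 bases before the RefSeq transcript start (GRCm38.p6), read 5′ to 3′ on the strand of the gene, which is + for Cxcr2 (chr1:74153744-74153993) and − for Ly6c2 (chr15:75111972-75112221). Capitals mark matches to the motifs below.
Cxcr2: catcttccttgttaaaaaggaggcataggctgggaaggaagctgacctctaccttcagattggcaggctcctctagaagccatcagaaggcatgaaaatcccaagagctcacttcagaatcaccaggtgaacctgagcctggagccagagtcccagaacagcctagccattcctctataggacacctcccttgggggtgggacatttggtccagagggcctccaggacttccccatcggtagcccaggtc
Ly6c2: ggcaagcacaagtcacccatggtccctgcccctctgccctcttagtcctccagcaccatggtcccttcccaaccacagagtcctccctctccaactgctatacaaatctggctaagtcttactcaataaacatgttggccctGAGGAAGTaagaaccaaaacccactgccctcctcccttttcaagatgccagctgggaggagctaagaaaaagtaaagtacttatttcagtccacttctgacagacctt
The motifs searched, on both strands, were TTGCNNAA for C/EBP factors, GAGGAAGT for PU.1 and for interferon regulatory factors 2 runs of GAAA with 2 bases between them. No match lay in the Cxcr2 window, and 1 for PU.1 began 108 bases before the start of Ly6c2. Of the 24 leading genes named above, 18 had a window in RefSeq and 2 of these held a motif, Ly6c2 that for PU.1 and Ifi211 that for interferon regulatory factors. Among called genes with a window, the C/EBP letters stood in 10 of 71 genes higher in PMN-MDSC (14.1%) and 0 of 25 lower ones, against 9.55% of 27025 RefSeq windows and 7.5% of those of tested genes. The PU.1 letters stood in 7.04% and 4.0% of the called genes higher and lower (2.44% of all windows, 3.23% of those of tested genes). Those for interferon regulatory factors stood in 4.23% and 12% (3.04% of all windows, 3.06% of those of tested genes). These shares rest on at most 10 genes each and describe letters only.

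Macrophage genes were detected in both populations and were on balance higher in the libraries labelled PMN-MDSC. Of 22 macrophage genes, 19 were tested, 8 were higher and 1 lower in PMN-MDSC, with a median log2 difference of 0.56. Of all tested genes, 7.25% were higher and 5.73% lower. None was called by edgeR, although 12 had an unadjusted p under 0.05 and DESeq2 gave 9 an adjusted p under 0.001. An unadjusted p under 0.05 was found by edgeR for 2115 of all 7623 tested genes. The summed list stood at 12950 to 17870 CPM in PMN-MDSC and 8324 to 13300 CPM in M-MDSC, ranges that overlapped. The PMN-MDSC level was 159% ± 21 of the M-MDSC mean (SD, n = 4) and 919% ± 121 of that of spleen PMN-MDSC (SD, n = 4). C1qa (ENSMUSG00000036887.5, chromosome 4, 136895917 to 136898803), a chain of complement C1q made by tissue macrophages, was at 655, 508, 608 and 563 CPM in PMN-MDSC libraries 1 to 4 and 125, 233, 334 and 188 CPM in M-MDSC libraries 1 to 4. The groups did not overlap (log2 fold change 1.45 ± 0.233 SE, adjusted p = 0.00143). C1qb and C1qc had log2 fold changes of 1.33 (adjusted p = 0.00367) and 1.35 (adjusted p = 0.00605). Stab1, the scavenger receptor stabilin-1, was at 657, 433, 599 and 623 CPM against 170.4, 226, 329 and 245 CPM (log2 fold change 1.30 ± 0.196 SE, adjusted p = 0.00102). Adgre1, which encodes F4/80, was at 374, 389.6, 340.1 and 348 CPM against 226, 273, 234 and 229.5 CPM (log2 fold change 0.64 ± 0.136 SE, adjusted p = 0.00837). Lyve1, of perivascular macrophages, and Pf4 had log2 fold changes of 2.98 (adjusted p = 0.00143) and 1.81 (adjusted p = 0.00237). Fcgr1, the high-affinity IgG receptor CD64, went the other way (log2 fold change −0.88 ± 0.169 SE, adjusted p = 0.00449).

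Of 7 tested MHC class II genes, which present peptides to CD4 T cells, 4 were higher and 0 lower (median 0.70), where 7.25% of all tested genes were higher and 5.73% lower. H2-Eb1 was at 1357, 956, 1149 and 1130.0 CPM against 420.1, 518, 734 and 536 CPM (log2 fold change 1.10 ± 0.178 SE, adjusted p = 0.00143). H2-Aa had a log2 fold change of 0.86 ± 0.180 SE and an adjusted p = 0.00759 and H2-Ab1 a log2 fold change of 0.70 ± 0.163 SE and an adjusted p = 0.0126, whereas Cd74, the invariant chain, had a log2 fold change of 0.74 ± 0.191 SE and an adjusted p = 0.022 and an adjusted p of up to 0.0606 without 1 library. Of 15 tested genes of lipid-associated macrophages, 1 was called, 7 were higher and 1 lower (median 0.49). The called member was the tetraspanin Cd9, at 136, 165, 216 and 202 CPM against 36.3, 41.1, 55.5 and 40.4 CPM (log2 fold change 2.09 ± 0.191 SE, adjusted p = 3.43e-05). Spp1, osteopontin, was at 617, 343, 401 and 272 CPM against 167, 152, 263 and 206 CPM (log2 fold change 1.09 ± 0.242 SE, adjusted p = 0.0108). The lysosomal tetraspanin Cd63 (log2 fold change 1.94 ± 0.314 SE, adjusted p = 0.00183) and the lipid transfer protein gene Pltp (log2 fold change 1.54 ± 0.248 SE, adjusted p = 0.00143) were higher, and Lgals3, galectin-3, was lower (log2 fold change −1.02 ± 0.196 SE, adjusted p = 0.00436). Itgax, which encodes CD11c and was the 1 gene higher among 4 tested dendritic cell markers, was at 308, 342, 369 and 344 CPM against 68.2, 86.9, 116 and 105 CPM (log2 fold change 1.91 ± 0.174 SE, adjusted p = 3.43e-05). Of 6 tested Fc receptor genes, 2 were higher and 1 lower, and the neonatal Fc receptor Fcgrt was called higher (log2 fold change 1.33 ± 0.176 SE, adjusted p = 0.000407; up to an adjusted p of 0.0025 without 1 library). Of 12 tested complement genes, 5 were higher and 1 lower, and C4b had an adjusted p just under the stricter threshold (log2 fold change 1.67 ± 0.247 SE, adjusted p = 0.000996), which every fit without 1 library ended (0.00105 to 0.00524). Of 8 tested scavenger receptors, 3 were higher and 2 lower. Olr1 was higher (log2 fold change 1.13 ± 0.222 SE, adjusted p = 0.005) and Scarb1, the HDL receptor, lower (log2 fold change −1.19 ± 0.190 SE, adjusted p = 0.0014). Fcgr4, an activating IgG receptor, was higher (log2 fold change 0.90 ± 0.229 SE, adjusted p = 0.0206) and the scavenger receptor Msr1 lower (log2 fold change −0.74 ± 0.174 SE, adjusted p = 0.0137), with adjusted p-values of up to 0.0681 and 0.0554 without 1 library. Of 10 tested lysosomal cathepsins, 1 was higher and 0 lower, a share near that of all tested genes (13% either way).

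Most tested genes of T cell suppression did not pass the test. Of 9 genes of arginine metabolism, 2 were higher and 1 lower, and of 10 immune checkpoint and costimulation genes 2 were higher and 1 lower, where 13% of all tested genes were either. The arginine transporter gene Slc7a2 was higher (log2 fold change 1.29 ± 0.256 SE, adjusted p = 0.00556) and Ass1, which rebuilds arginine from citrulline, lower (log2 fold change −1.04 ± 0.234 SE, adjusted p = 0.011). Cd274, which encodes PD-L1, was at 203, 315, 249 and 247 CPM against 130.3, 123, 84.9 and 98.3 CPM, higher in PMN-MDSC without overlap (log2 fold change 1.26 ± 0.195 SE, adjusted p = 0.00118). The costimulatory ligand Cd80 was higher (log2 fold change 1.14 ± 0.180 SE, adjusted p = 0.00135) and Cd40 lower (log2 fold change −1.02 ± 0.259 SE, adjusted p = 0.0204; up to an adjusted p of 0.07 without 1 library). Of the TGF-beta and IL-10 genes, 8 were tested, 2 were higher and 2 lower. The receptor chains Tgfbr1 (log2 fold change 1.47 ± 0.258 SE, adjusted p = 0.00307) and Tgfbr2 (log2 fold change 1.06 ± 0.160 SE, adjusted p = 0.00102) were higher, and Tgfb1, the ligand, was lower (log2 fold change −0.58 ± 0.164 SE, adjusted p = 0.0334; up to 0.109 without 1 library).

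Interleukin-1 genes were abundant in both populations. Il1b was at 5595, 7831, 8419 and 8527 CPM in PMN-MDSC and 6414, 4157, 5353 and 3751 CPM in M-MDSC, with PMN-MDSC library 1 below the highest M-MDSC library (log2 fold change 0.67 ± 0.221 SE, adjusted p = 0.0634). Il1a was at 820.0, 777, 845 and 550.1 CPM against 399, 204, 318 and 131 CPM and did not overlap (log2 fold change 1.55 ± 0.285 SE, adjusted p = 0.00429). The receptor antagonist Il1rn was higher (log2 fold change 1.25 ± 0.235 SE, adjusted p = 0.00409), as was the inflammasome sensor Nlrp3 (log2 fold change 0.91 ± 0.248 SE, adjusted p = 0.0301; up to 0.0976 without 1 library). In all, 4 of 8 tested genes of the family were higher and 1 lower, and Il1r2, described above, was the 1 called. Of all tested genes, 7.25% were higher, 5.73% lower and 1.65% called, which are also the shares to set beside the chemokine counts below. Il1f9, called higher above, belongs to the same family but is not among these 8, as the list held it under another symbol. Of 10 CC chemokines tested, 4 were higher and 1 lower. Ccl8, a monocyte attractant, was at 80.7, 76.4, 77.9 and 74.0 CPM against 4.95, 8.76, 26.6 and 5.04 CPM (log2 fold change 2.61 ± 0.397 SE, adjusted p = 0.00147), and Ccl12 and Ccl3 had log2 fold changes of 1.58 (adjusted p = 0.00118) and 1.15 (adjusted p = 0.00179). Ccl9 was lower (log2 fold change −0.92 ± 0.253 SE, adjusted p = 0.0311; up to 0.0811 without 1 library). Of 7 CXC chemokines, 3 were higher, among them Cxcl2, a ligand of Cxcr2, at 1177, 2052, 2209 and 1890.0 CPM against 999.6, 541, 1032 and 585 CPM (log2 fold change 1.26 ± 0.254 SE, adjusted p = 0.0061), and Cxcl16 (log2 fold change 1.31 ± 0.212 SE, adjusted p = 0.00143). Among chemokine receptors, Cxcr4 (log2 fold change 1.53 ± 0.251 SE, adjusted p = 0.00181) and Ccrl2 (log2 fold change 1.02 ± 0.192 SE, adjusted p = 0.00399) were higher besides Cxcr2 and Cx3cr1, and Ccr2 was lower.

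**Figure D4:**
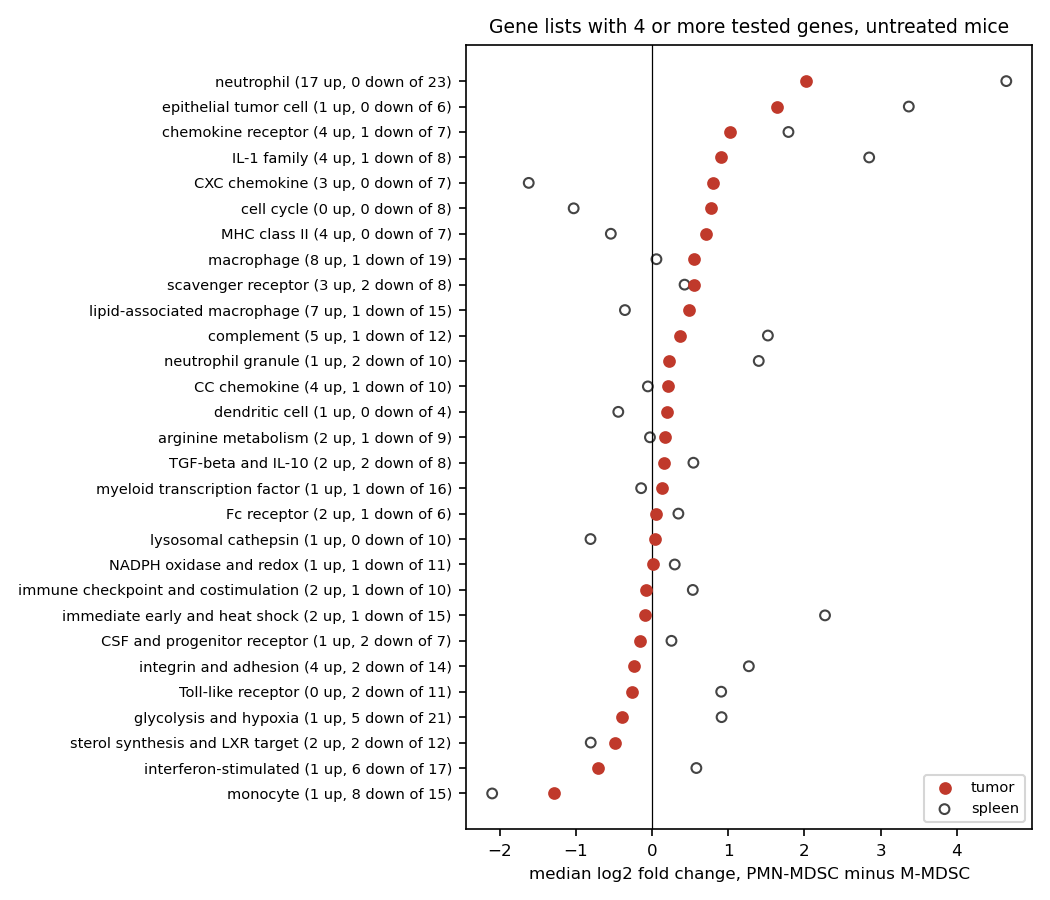
Median log2 fold change (PMN-MDSC minus M-MDSC) of each gene list with at least 4 tested genes, in tumor (filled points) and spleen (open points) of untreated mice, with the number of members higher (up) and lower (down) in tumor at an adjusted p under 0.05. Neutrophil genes have the highest median in tumor (2.02) and monocyte genes the lowest (−1.29), and most other lists lie between −1 and 1 in tumor.

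Of 21 tested genes of glycolysis and hypoxia, 5 were lower and 1 was called higher (median −0.40), where 5.73% of all tested genes were lower and 7.25% higher. The glycolytic enzyme Eno1 was lower (log2 fold change −0.78 ± 0.153 SE, adjusted p = 0.00507), as were Pkm (log2 fold change −0.63 ± 0.159 SE, adjusted p = 0.0207; up to 0.0688 without 1 library) and Hif1a (log2 fold change −0.82 ± 0.197 SE, adjusted p = 0.0158; up to 0.0609 without 1 library), whereas Egln3, an oxygen-sensing hydroxylase that limits Hif1a, was higher (log2 fold change 1.51 ± 0.212 SE, adjusted p = 0.000602). In the sterol group of 12 tested genes, 2 were higher and 2 lower, and the cholesterol exporter Abca1 was higher (log2 fold change 1.15 ± 0.205 SE, adjusted p = 0.00289). Of 17 tested interferon-stimulated genes, 6 were lower and 1 higher (median −0.72). Irf7, a master regulator of type I interferon, was at 51.5, 37.9, 50.4 and 70.7 CPM against 141, 133, 96.8 and 76.9 CPM (log2 fold change −1.05 ± 0.229 SE, adjusted p = 0.00925). Stat2 (log2 fold change −0.81 ± 0.176 SE, adjusted p = 0.0093) and Oas2 (log2 fold change −0.88 ± 0.197 SE, adjusted p = 0.011) were lower, and Oasl2 was higher (log2 fold change 0.90 ± 0.207 SE, adjusted p = 0.0126). Ncf1, the oxidase organizer p47phox, was called higher (log2 fold change 1.38 ± 0.204 SE, adjusted p = 0.000934; up to 0.00523 without 1 library), unlike Cybb.

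Of 16 tested transcription factors of myeloid fate, 1 was higher and 1 lower, where 13% of all tested genes were either. Spi1, which encodes PU.1, was at 233, 260.1, 321 and 353 CPM against 287, 299, 292 and 236 CPM (log2 fold change 0.11 ± 0.160 SE, adjusted p = 0.706), and Cebpa had a log2 fold change of 0.34 ± 0.171 SE and an adjusted p = 0.218. Klf2 was higher (log2 fold change 0.67 ± 0.172 SE, adjusted p = 0.0222) and Zeb2 lower (log2 fold change −0.71 ± 0.172 SE, adjusted p = 0.0167), with adjusted p-values of up to 0.0762 and 0.0613 without 1 library. Toll-like receptors Tlr2 (log2 fold change −0.87 ± 0.204 SE, adjusted p = 0.0134; up to 0.0542 without 1 library) and Tlr5 (log2 fold change −1.02 ± 0.217 SE, adjusted p = 0.00825) were the 2 lower genes of 11 tested, and no other passed. The immediate early factor Egr1, which responds within minutes to stimulation and cell handling, was higher (log2 fold change 1.09 ± 0.217 SE, adjusted p = 0.0053), in a group of 15 with 2 higher and 1 lower. The others of these were the chaperone gene Dnajb1, higher (log2 fold change 0.85 ± 0.209 SE, adjusted p = 0.0178; up to 0.0594 without 1 library), and Atf3, lower (log2 fold change −0.83 ± 0.231 SE, adjusted p = 0.0311; up to 0.108 without 1 library). Of 8 tested cell cycle genes, edgeR found 0 with an adjusted p under 0.05 (median 0.78) and DESeq2 found 1. By edgeR 5 of the 8 had an unadjusted p under 0.05, as did 2115 of all 7623 tested genes.

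Markers of other cells were present at low and uneven levels. In PMN-MDSC the epithelial list summed to 210.6 to 881.9 CPM, against 106.7 to 372 CPM in M-MDSC and 5288 to 6841 CPM in bulk tumor. Of its 6 tested genes only Lamb3, a laminin chain, was higher (log2 fold change 4.26 ± 0.480 SE, adjusted p = 0.000192), at 30.9, 58.0, 63.1 and 72.6 CPM against 0, 4.72, 4.16 and 2.52 CPM, while Krt8 and Krt18 overlapped between the groups (adjusted p = 0.371 and 0.194). Of the PMN-MDSC libraries, library 1 had the lowest Lamb3 and the highest Krt8. The T and NK cell list summed to 21.8 to 33.6 CPM in PMN-MDSC and 10.4 to 17.8 CPM in M-MDSC, and its defining gene Cd3e had 1 and 2 counts in all. Its 1 tested gene, Cd4, was higher in PMN-MDSC (log2 fold change 1.38 ± 0.311 SE, adjusted p = 0.0111), as was Pecam1 of the fibroblast and endothelial list (log2 fold change 0.75 ± 0.210 SE, adjusted p = 0.0318; up to 0.0965 without 1 library). The B and plasma cell list summed to 57.5 to 111.6 CPM and 39.1 to 101.8 CPM. Acinar enzymes of the pancreas summed to 18.0 to 127.9 CPM in PMN-MDSC and 6.07 to 28.3 CPM in M-MDSC, and hemoglobin and platelet genes to at most 19.5 and 21.6 CPM. The part of other cells in the differences above was not tested. PMN-MDSC library 1, which held the most keratin and the least neutrophil RNA, also had the highest C1qa of its group, at 655 CPM against 508 to 608 CPM in the other 3. Its summed macrophage list, at 16260 CPM, was not the highest, as libraries 3 and 4 held 17870 and 16570 CPM.

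**Figure D5:**
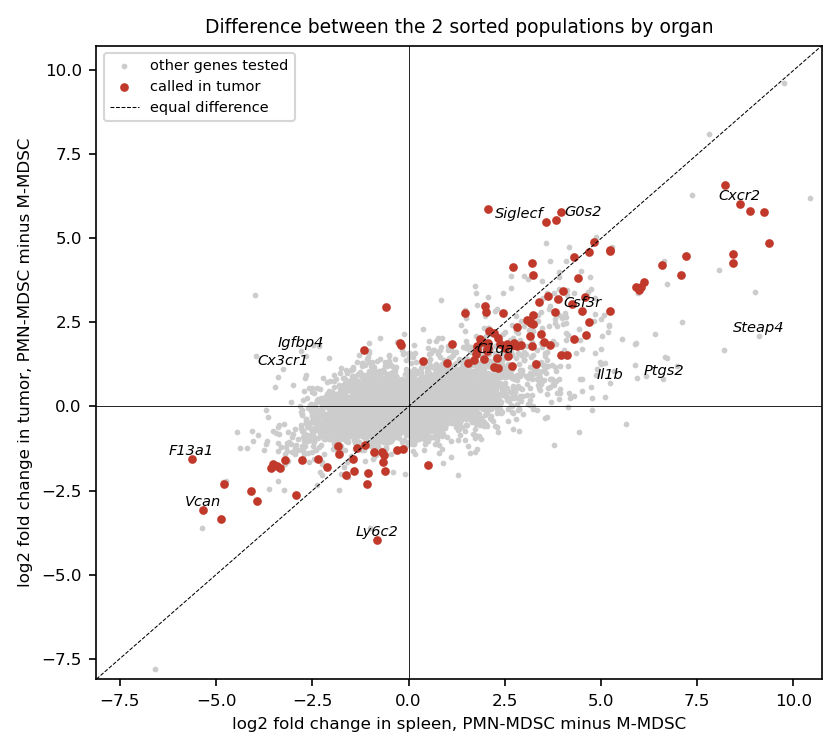
Log2 fold change of PMN-MDSC minus M-MDSC in spleen (horizontal) and in tumor (vertical) for the 8278 genes fitted in both organs of untreated mice; red points are genes called in tumor and the dashed line marks equal differences. Most points spread more widely along the spleen axis, and Cx3cr1 and Igfbp4 lie at negative spleen and positive tumor values.

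The same populations differed more in the spleen, where the same mice gave 4 libraries of each. Spleen PMN-MDSC library 2 stood apart, with 795 CPM of Ptprc against 3221 to 3997 CPM in the other 3. There, 1993 of 8579 tested genes (23.2%) were called, 1228 (14.3%) of them higher and 765 (8.92%) lower in PMN-MDSC, and 5523 (64.4%) had an adjusted p under 0.05. Of 7502 genes tested in both organs, 79.6% had the smaller absolute difference in tumor, with medians of 0.28 in tumor and 0.76 in spleen. A fit over all 16 libraries asked, gene by gene, whether the difference between PMN-MDSC and M-MDSC was unequal in tumor and spleen. It found 3085 of 8278 genes (37.3%) with an adjusted p under 0.05, and 2947 without spleen PMN-MDSC library 2. Of these, 1640 (19.8% of the genes fitted) had a more positive difference in tumor, a split of 53.2% that moved to 42.1% with RLE and 68.2% with upper-quartile scaling and to as little as 41.6% without 1 library. Of the 91 genes called higher in tumor PMN-MDSC and tested in spleen, 87 had the same sign there, and of 33 called lower, 32 did, against 66.2% of all 7502 genes. The size of the difference was unequal between the organs in 39 of the 91 (42.9%) and in 19 of the 33 (57.6%). Over all genes fitted the median of these differences of differences was 0.10, and it was −0.06 with RLE and 0.31 with upper-quartile scaling.

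Among neutrophil genes Cxcr2, Csf3r and Il1r2 differed less in tumor, and G0s2 differed more. All 26 were higher in spleen PMN-MDSC than in spleen M-MDSC, with a median log2 difference of 4.65. For Cxcr2 the difference was 6.02 in tumor and 8.60 in spleen (interaction −2.58 ± 0.724 SE, adjusted p = 0.0109), for Csf3r 2.83 and 4.51 (interaction −1.69 ± 0.373 SE, adjusted p = 0.00263), and for Il1r2 3.57 and 5.92 (interaction −2.35 ± 0.466 SE, adjusted p = 0.00123). G0s2 went the other way, with 5.56 in tumor and 3.83 in spleen (interaction 1.73 ± 0.590 SE, adjusted p = 0.0297), and so did Siglecf, with 5.49 and 3.57 (interaction 1.92 ± 0.675 SE, adjusted p = 0.0336). For this pair the adjusted p was 0.0575 and 0.0571 with RLE scaling and at most 0.0896 and 0.147 without 1 library, and it stayed under 0.05 in 5 and 6 of 16 such fits. Adgrg3 had 5.87 in tumor and 2.06 in spleen (interaction 3.81 ± 0.866 SE, adjusted p = 0.00309). The 5 most negative values among protein-coding genes that passed were those of Steap4, a metalloreductase (interaction −7.01 ± 1.15 SE, adjusted p = 0.000281), Gpat3 of triglyceride synthesis (interaction −6.17 ± 0.736 SE, adjusted p = 2.14e-05), Ptgs2 (interaction −5.80 ± 0.629 SE, adjusted p = 9.34e-06), Dhrs9 (interaction −5.58 ± 0.940 SE, adjusted p = 0.000344) and Nt5e, the ectonucleotidase CD73 (interaction −5.28 ± 0.610 SE, adjusted p = 1.66e-05). For Ptgs2 the M-MDSC mean was 1906 CPM in tumor and 0.442 CPM in spleen, and the PMN-MDSC mean was 3246 and 40.1 CPM. Il1b likewise differed by 0.68 in tumor and 5.24 in spleen (interaction −4.55 ± 0.359 SE, adjusted p = 9.62e-07). Il1b stood at 4919 CPM in tumor M-MDSC and 69.6 CPM in spleen M-MDSC, and the difference between organs within one population was not tested.

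For Vcan, Ccr2 and F13a1 of the monocyte list the difference was smaller in tumor as well. Vcan differed by −3.09 in tumor and −5.34 in spleen (interaction 2.24 ± 0.606 SE, adjusted p = 0.00888), Ccr2 by −1.83 and −3.58 (interaction 1.74 ± 0.543 SE, adjusted p = 0.019), and F13a1 by −1.57 and −5.64 (interaction 4.07 ± 0.652 SE, adjusted p = 0.00025). F13a1 was at 276 CPM in tumor PMN-MDSC and 9.16 CPM in spleen PMN-MDSC. Ly6c2 was an exception, with −3.96 in tumor and −0.82 in spleen (interaction −3.14 ± 0.615 SE, adjusted p = 0.00111), and spleen PMN-MDSC held 63.3 CPM. Cx3cr1 had opposite signs, with 1.12 in tumor and −3.25 in spleen (interaction 4.37 ± 0.572 SE, adjusted p = 4.65e-05), as did Igfbp4, a binding protein of insulin-like growth factors (1.64 and −2.80; interaction 4.44 ± 0.479 SE, adjusted p = 9.11e-06), and Gpx3, a secreted glutathione peroxidase (0.87 and −3.39; interaction 4.25 ± 0.429 SE, adjusted p = 5.02e-06). Like F13a1, these 3 genes and the mitochondrial gene mt-Nd3 (interaction 4.30 ± 0.956 SE, adjusted p = 0.00276) had the 5 most positive values among protein-coding genes that passed, mt-Nd3 beside mitochondrial shares of 2.63 to 5.27% in spleen PMN-MDSC, whose part was not tested. Itgam differed by −0.45 in tumor and 1.34 in spleen (interaction −1.79 ± 0.319 SE, adjusted p = 0.000546). For C1qa the differences were 1.46 and 2.24, which did not pass (interaction −0.78 ± 0.480 SE, adjusted p = 0.212; 0.032 without spleen M-MDSC library 1). The macrophage genes had a median of 0.56 in tumor and 0.06 in spleen, and MHC class II genes 0.70 and −0.54, with Cd74 at 0.75 and −0.75 (interaction 1.5 ± 0.487 SE, adjusted p = 0.0234; up to 0.0611 without 1 library, and under 0.05 in 12 of 16 such fits).

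Tumors of mice given poly(I:C) with polyethylenimine offered 4 PMN-MDSC and 3 M-MDSC libraries that the comparison above had not used. A further M-MDSC library there, number 1, held 10 counts in all and was left out. M-MDSC library 3 went against its label. It had 2.98 CPM of Ly6c2, where M-MDSC libraries 2 and 4 had 622 and 442.5 CPM and the PMN-MDSC libraries 67.5 to 245.5 CPM, and 9.18 CPM of Vcan, where the other two had 728 and 229.9 CPM and the PMN-MDSC libraries 14.2 to 98.0 CPM. The same library held the most C1qa, at 2192 CPM against 380.5 and 960.6 CPM in M-MDSC and 693 to 1405 CPM in PMN-MDSC. In these tumors edgeR called 0 of 8955 genes at the stricter thresholds, DESeq2 called 93, 34 genes (0.38%) had an adjusted p under 0.05, and 1153 an unadjusted p under 0.05. Without 1 treated library edgeR called 0 genes in each of 7 fits, and 0 to 38 had an adjusted p under 0.05. Of 124 genes called in untreated tumors and tested in treated ones, 116 (93.5%) had the same sign, against 67.1% of all 7561 genes. Without M-MDSC library 3 it was 123 of 125 (98.4%), and without M-MDSC library 2 it was 105 of 122 (86.1%). The genes called higher kept a median log2 difference of 1.88 (2.48 in untreated tumors), and those called lower one of −0.82 (−1.74). Cxcr2 had a log2 fold change of 7.01 (adjusted p = 0.0336) in treated tumors, Csf3r of 3.23 (adjusted p = 0.0336) and Cd9 of 1.69 (adjusted p = 0.0336). Without M-MDSC library 3 these were 6.42, 3.23 and 1.57 (adjusted p = 0.0806, 0.115 and 0.115), and the adjusted p reached 0.14, 0.147 and 0.133 without M-MDSC library 2. On the M-MDSC side, Vcan had −2.48 (adjusted p = 0.39) and Ly6c2 −1.17 (adjusted p = 0.64), and without M-MDSC library 3 the values were −3.05 (adjusted p = 0.206) and −1.76 (adjusted p = 0.232). For the macrophage gene C1qa the value was −0.07 (adjusted p = 0.955) with M-MDSC library 3 and 0.73 (adjusted p = 0.46) without it. The treatment itself was not part of this comparison.

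The libraries labelled PMN-MDSC were thus those with more Cxcr2, Csf3r and Hdc, and those labelled M-MDSC those with more Ly6c2, Vcan and Ccr2, as the names of the sorts would have it. Ly6g, at 28 counts in 4 PMN-MDSC libraries against 2 in M-MDSC, was low in both, and the summed macrophage level of PMN-MDSC was above that of most M-MDSC libraries. Both populations held monocyte and macrophage transcripts, while of the neutrophil list M-MDSC held chiefly Ptgs2, Clec4e and Mxd1. Each difference compares the sorted samples as labelled. The paper reports a high mean purity of the sorted cells in both organs. From these libraries, the share of macrophages or other cells in either sort and the RNA of these genes per cell cannot be told apart.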

How the data were processed

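RNA was measured in sorted MDSC and bulk tumors, 35 libraries in all, of which 1 M-MDSC library of a treated tumor held 10 counts and was left out. Per the labels and the study's methods, total RNA was depleted of ribosomal RNA and amplified with a stranded kit for picogram input over 13 PCR cycles, and reads were mapped to the mouse genome GRCm38. The submitters' processing notes name BWA, Subread 1.4.6-p3 and featureCounts, and the authors deposited raw fragment counts per Gencode gene, without normalization. These counts of the authors were used as deposited. Symbols, positions and exon lengths came from the GENCODE annotation of GRCm38 for 53274 of 53379 identifiers, and promoter windows from RefSeq.

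Genes averaging 25 counts or more were tested with edgeR 4.0.16 (TMM, robust quasi-likelihood F test, R 4.3.3, limma 3.58.1) and Benjamini-Hochberg adjustment, with DESeq2 1.42.0, the tool of the study, as an alternative. Standard errors were derived from the F statistic, levels were counts scaled to a common library total (CPM), and log2 fold changes are PMN-MDSC minus M-MDSC. The interaction was fitted over 16 untreated libraries. The tumor fit and the interaction fit were also run on simulated data as a check of the code, and the outcome is not given here. Totals per sample set the precision given beside the levels, and no molecular identifiers were counted. Sample titles number the mice, but no label ties the columns to those numbers. PMN-MDSC and M-MDSC came from the same mice, which the fits did not take into account, and p-values measure the spread between these libraries.

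The members, the gene lists and the tests were chosen with earlier results of these data known. Named genes were the 12 highest and 12 lowest called protein-coding genes without overlap, the antigens of the sort, the first 3 and up to 4 further members of each list by adjusted p, and the 5 highest and 5 lowest interaction genes. Some genes and 1 allele of the tumor line are not reported here. Alternatives were other scalings (RLE, upper quartile), no filter or at least 10 counts in every library, no robust estimates, a joint fit of the 4 untreated MDSC groups, other thresholds and each library left out of the comparisons it entered. The figures were drawn with matplotlib 3.10.9.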

Additional observations from a re-analysis of the deposited data

Results flagged for a closer look

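In 276 sets of 4 libraries, 15 values lay apart from the other 3 by more than Dixon's limit of 0.829, where chance alone gives about 1 in 20 sets. PMN-MDSC library 1 held 4 of them. It had the lowest Hdc (348 CPM, against 931 to 967 CPM in the others), Adgrg3 (7.28 CPM) and summed neutrophil level (7090 CPM), and the highest Ccr2 (458 CPM). PMN-MDSC library 2 had the lowest Scarb1 (32 CPM) and the highest Tgfbr1 (377 CPM). M-MDSC library 4, the shallowest, had the lowest Hdc (13.9 CPM), summed checkpoint level (1490 CPM) and summed integrin level (4490 CPM), and the highest Plcb1 (236 CPM) and Atf3 (1240 CPM). M-MDSC library 2 had the highest F13a1 (910 CPM), Adgre1 (273 CPM) and summed erythroid and platelet level (21.6 CPM), and M-MDSC library 3 the lowest Cd40 (54.1 CPM).

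For 22 named genes the difference between PMN-MDSC and M-MDSC was unequal in tumor and spleen by the interaction term of edgeR. The interaction (log2, tumor minus spleen) was negative for Ly6c2 (−3.14), Itgam (−1.79), Csf3r (−1.69), Cxcr2 (−2.58), Il1r2 (−2.35) and Il1b (−4.55). It was also negative for Nt5e (−5.28), Dhrs9 (−5.58), Ptgs2 (−5.80), Gpat3 (−6.17) and Steap4 (−7.01). It was positive for G0s2 (1.73), Siglecf (1.92), Adgrg3 (3.81), Vcan (2.24), Ccr2 (1.74), F13a1 (4.07), Cd74 (1.5), Cx3cr1 (4.37), Igfbp4 (4.44), mt-Nd3 (4.30) and Gpx3 (4.25). Leaving out each of the 16 untreated libraries in turn kept 19 of the 22 below an adjusted p of 0.05, and those for G0s2, Siglecf and Cd74 reached 0.0896, 0.147 and 0.0611.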

How the results depend on the processing

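The number of genes called in untreated tumors (126) was 388 with DESeq2, 579 with no filter on low counts, 488 with an adjusted p under 0.05 and 2-fold, and 990 without the fold limit. Leaving out 1 library gave 53 (without PMN-MDSC library 2) to 190 (without PMN-MDSC library 1), and the cause was not tested. Under RLE and upper-quartile scaling, a filter of at least 10 counts in every library, no robust estimates and the joint fit of the 4 groups it was 115 to 182. The number of genes with unequal differences in tumor and spleen (3085) was 573 with an adjusted p under 0.001 and 2-fold, and 2594 to 3717 without 1 of the 16 libraries. The share of these that were more positive in tumor, 53.2%, was 42.1% with RLE scaling, 43.3% with DESeq2 and 68.2% with upper-quartile scaling. The called genes of the same sign in treated tumors numbered 116 of 124. They became 323 of 380 with DESeq2's calls and 781 of 980 with an adjusted p under 0.05. Leaving out 1 untreated library gave counts from 49 of 53 to 177 of 185. The share was lowest at 76 of 87 without untreated M-MDSC library 3, followed by 102 of 116 without untreated M-MDSC library 4. Leaving out 1 treated library gave 105 of 122 (86.1%, without M-MDSC library 2) to 123 of 125 (98.4%, without M-MDSC library 3). The neutrophil level in tumor PMN-MDSC, 46.6% of spleen, was 37.2% with TMM-scaled CPM, 19.4% as the median over genes and 42.8 to 53.1% without 1 library. Leaving out PMN-MDSC library 2 turned the log2 fold change of Ptprc to −0.094 and leaving out M-MDSC library 3 to −0.024, with 0.15 at the highest.

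Of 1647 values of 112 named genes under the alternatives, 1437 kept their direction and side of the threshold, 100 lost the threshold, 108 gained it and 2 turned direction. Of 492 values of 23 named tumor and spleen differences, these numbers were 459, 31, 2 and 0. No paired analysis was possible because the columns carry a running number that is in no label, and libraries were not matched to mice by column order. Depth limits genes near 3 counts, Ly6g among them. The list without Ptgs2 and the fits without a spleen or treated library were alternatives chosen after seeing the data.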
